A study of Homo sapiens with 5 samples.

Results

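The chemokine family was examined in 5 human cell lines: the small secreted chemokines, which guide migrating cells, and the cell-surface receptors that bind them. Members were chosen by gene name alone, as the gene symbols that start with CXCL, CCL, XCL or CX3CL followed by a digit, or that consist of CXCR, CCR, XCR or CX3CR and a number, with hyphenated read-through names left out. This gave 63 of the 57905 genes in the table, 45 of them chemokine genes (the pseudogene CXCL1P included) and 18 receptor genes. MKL-1, MKL-2, WaGa and MCC13 were labelled as Merkel cell carcinoma (MCC, a neuroendocrine skin cancer) and REH as pre-B-cell acute lymphoblastic leukemia. All 5 lines carried the genotype label WT and shared 1 growth medium, no treatment or time was stated, and RNA came from 1 library per line. Line and library therefore cannot be told apart, n counts lines, and p-values measure the spread between lines. Levels are given as TPM (a length-scaled share of each library's transcripts), and the read depth behind them was unknown. Because a 0 may also stand for an estimate that failed, such values are written as listed at 0.

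Chemokines fall into the CXC, CC, XC and CX3C classes by the spacing of their first cysteines, and they act on G protein-coupled receptors that are shared by several ligands. CXC chemokines that carry the tripeptide motif Glu-Leu-Arg before the first cysteines, such as CXCL1, CXCL6 and interleukin 8 (IL8, now named CXCL8), bind CXCR2 and draw neutrophils, whereas CXCL9, CXCL10 and CXCL11 are induced by interferon and draw T cells through CXCR3. CXCL12 and its receptor CXCR4 hold B-cell precursors in the bone marrow, and CCL27 and CCL28 guide CCR10-bearing lymphocytes to skin and mucosa.

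The labels were first set against marker genes. All 8 Merkel and neuroendocrine markers reached 1 TPM in each of MKL-1, MKL-2 and WaGa. In MCC13 only SYP did (3.23 TPM), and ATOH1, INSM1, ISL1 and KRT20 were listed at 0, so MCC13 went against the neuroendocrine markers of its label. In REH 6 of 7 B-precursor markers reached 1 TPM, with VPREB1 listed at 0. These markers were not confined to REH: EBF1 ranged from 52.7 to 64.6 TPM over the MCC lines other than MCC13, DNTT at 22.4 TPM in MKL-1 and CD79A at 7.67 TPM in MKL-2. The T-cell genes CD3D, CD3E and CD2 were listed at 0 in every line, and none of the 3 endothelial markers found in the table reached 1 TPM. The summed level of 6 fibroblast markers was 89.0 TPM in MCC13, 68.9 TPM in REH and 3.80 to 28.9 TPM across MKL-1, MKL-2 and WaGa. Between such bulk libraries, fewer cells of a type and less RNA per cell cannot be told apart.

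Most members were at or near 0. Of the 63 members, 18 (28.6%) reached 1 TPM in at least 1 line, against 38.4% of all 57905 genes, many of which are non-coding. Of the 50 members that GENCODE 29 types as protein-coding, 34.0% did, against 77.5% of protein-coding genes. Of the 63 members, 12 were listed at 0 in all 5 lines. The 18 were 15 chemokine genes and 3 receptor genes, and only CXCL16, CXCR4 and CCR10 reached 1 TPM in every line. The remaining 33 members stayed between 0 and 1 TPM. The highest of them were XCL1 at 0.817 TPM in MCC13, CCR8 at 0.594 TPM in WaGa and CXCR6 at 0.529 TPM in MCC13. The number of members at 1 TPM or more was 13 in MCC13, 10 in MKL-2, 8 in WaGa, 6 in REH and 5 in MKL-1. MCC13 thus had the most members at this level and MKL-1 the fewest.

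**Figure D1:**
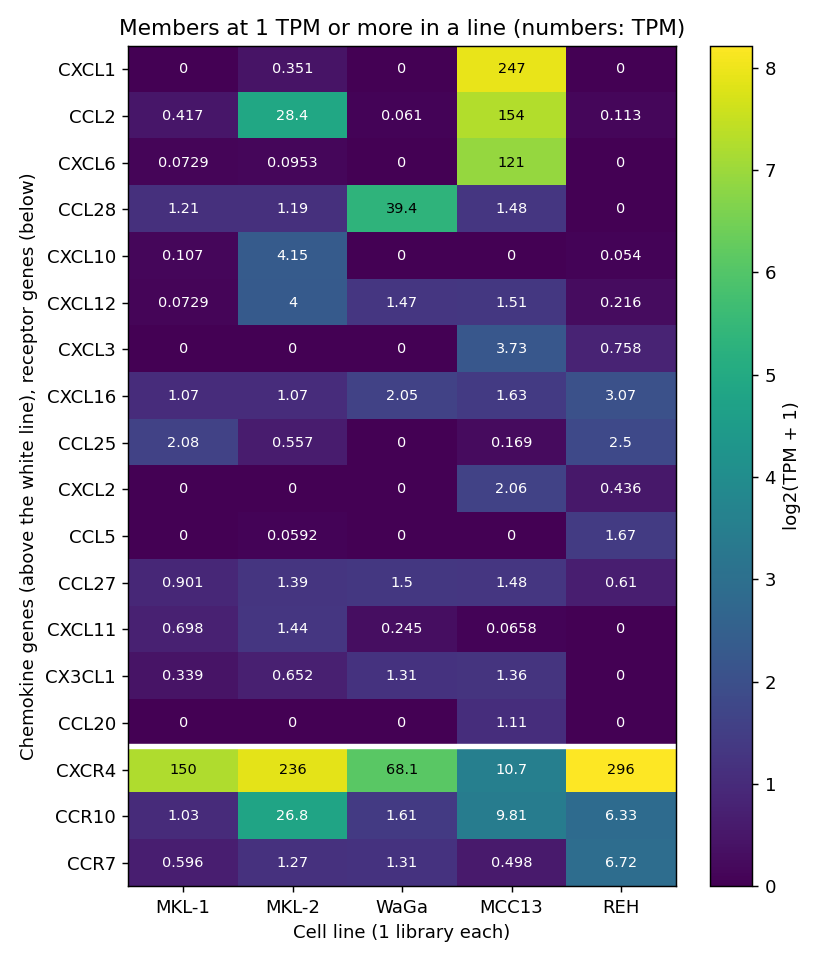
Levels of the 18 members that reached 1 TPM in at least 1 line, with genes as rows, the 5 lines as columns, colour as log2(TPM + 1) and the TPM value in each cell. CXCL1, CCL2 and CXCL6 are bright in MCC13, CCL28 in WaGa, and CXCR4 in every line except MCC13, where it stands at 10.7 TPM.

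The lines differed in which side of the system they expressed. Summed over the 45 chemokine genes, the level was 537 TPM in MCC13, against 46.2 TPM in WaGa, 44.8 TPM in MKL-2, 11.4 TPM in REH and only 7.78 TPM in MKL-1. Summed over the 18 receptor genes, it was 21.7 TPM in MCC13, against 309.6 TPM in REH, 264 TPM in MKL-2, 153 TPM in MKL-1 and 72.0 TPM in WaGa. By these sums MCC13 was the highest line for chemokines and, with CXCR4 counted, the lowest for receptors. Few genes carried these sums. In MCC13, CXCL1 made up 46.0% of the chemokine sum, CCL2 28.6% and CXCL6 22.4%. CCL2 made up 63.4% of it in MKL-2 and CCL28 85.2% in WaGa. CXCR4 made up 98.5% of the receptor sum in MKL-1, 95.5% in REH, 94.6% in WaGa, 89.2% in MKL-2 and 49.1% in MCC13.

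The neutrophil-attracting CXC chemokines lie next to each other on chromosome 4, and the promoters of 5 of these genes are shown because their levels in MCC13 ran from 0.427 to 299.9 TPM. The windows come from RefSeq (GRCh38.p14), start 250 bases before the transcription start and end 50 bases after it, and read 5′ to 3′. A RefSeq window was found for 44 of the 63 members. Capitals mark matches to GGNNNTTCC, a pattern of the type bound by the inflammatory transcription factor NF-kB, on either strand. The IL8, CXCL6 and CXCL1 genes were high in MCC13 and the CXCL5 and CXCL3 genes were not.
IL8 (chr4:73740319-73740618, plus strand): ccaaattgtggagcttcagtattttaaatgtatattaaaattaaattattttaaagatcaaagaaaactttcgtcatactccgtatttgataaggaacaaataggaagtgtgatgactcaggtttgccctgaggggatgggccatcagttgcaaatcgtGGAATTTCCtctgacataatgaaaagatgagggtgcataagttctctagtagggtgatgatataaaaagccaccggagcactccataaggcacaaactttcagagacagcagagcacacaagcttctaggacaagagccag
CXCL6 (chr4:73836428-73836727, plus strand): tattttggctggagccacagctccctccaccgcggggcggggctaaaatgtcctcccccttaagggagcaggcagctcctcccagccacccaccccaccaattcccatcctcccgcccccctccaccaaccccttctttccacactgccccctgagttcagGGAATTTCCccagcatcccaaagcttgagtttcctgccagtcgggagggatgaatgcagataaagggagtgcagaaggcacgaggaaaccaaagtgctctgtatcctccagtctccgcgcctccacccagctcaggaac
CXCL5 (chr4:73998628-73998927, minus strand): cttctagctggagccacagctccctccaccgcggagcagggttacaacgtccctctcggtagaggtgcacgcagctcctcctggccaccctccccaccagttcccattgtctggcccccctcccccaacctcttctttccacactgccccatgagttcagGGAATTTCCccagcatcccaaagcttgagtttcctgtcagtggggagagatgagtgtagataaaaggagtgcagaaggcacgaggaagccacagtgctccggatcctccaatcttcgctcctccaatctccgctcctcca
CXCL1 (chr4:73869143-73869442, plus strand): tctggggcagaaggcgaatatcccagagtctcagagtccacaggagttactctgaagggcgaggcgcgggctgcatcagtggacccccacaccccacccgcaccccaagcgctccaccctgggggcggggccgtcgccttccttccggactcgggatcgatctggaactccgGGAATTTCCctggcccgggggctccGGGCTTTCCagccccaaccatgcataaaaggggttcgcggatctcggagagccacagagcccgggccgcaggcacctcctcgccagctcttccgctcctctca
CXCL3 (chr4:74038640-74038939, minus strand): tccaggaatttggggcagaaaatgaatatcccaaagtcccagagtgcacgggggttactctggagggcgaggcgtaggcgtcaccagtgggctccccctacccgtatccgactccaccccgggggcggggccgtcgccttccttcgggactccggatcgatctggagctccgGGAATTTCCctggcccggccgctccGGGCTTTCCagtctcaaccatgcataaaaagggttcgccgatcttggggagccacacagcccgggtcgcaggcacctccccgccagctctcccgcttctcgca

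The 5 windows and that of CXCL2 all held the same 9 bases, GGAATTTCC, on the strand shown. The match began 91 bases before the start in IL8, 89 in CXCL6, 90 in CXCL5, 78 in CXCL1 and CXCL3, and 77 in CXCL2. These 9 bases, chosen after the windows were seen, or their reverse complement GGAAATTCC occurred in 0.461% of all 35116 windows and in 7 of 58 windows of members (IL8, which the name rule does not hold, is not counted among them). The other members with it were CXCL10 and CXCL11. The looser pattern GGNNNTTCC was found in 20.05% of all windows and in 24.1% of members' windows. CXCL1, CXCL2 and CXCL3 each held a further match, GGGCTTTCC, which began 53 bases before the start. The CXCL5 and CXCL6 windows were identical at 83.1% of aligned positions and the CXCL1 and CXCL3 windows at 82.5%, although their levels in MCC13 differed widely. A match describes the letters only and is no evidence of binding.

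In MCC13 the 3 genes IL8, CXCL6 and CXCL1 of this cluster were abundant and the rest of it was low. CXCL1, a neutrophil attractant, reached 247 TPM in MCC13 and only 0.351 TPM in MKL-2, with 0 listed for WaGa, REH and MKL-1. CXCL6, which binds both CXCR1 and CXCR2, reached 121 TPM in MCC13, 0.095 TPM in MKL-2 and 0.073 TPM in MKL-1, with 0 listed for WaGa and REH. IL8, by name outside the rule, reached 299.9 TPM in MCC13, 2.39 TPM in MKL-2, 1.04 TPM in REH and only 0.122 TPM in MKL-1, with 0 listed for WaGa. For each of these genes MCC13 lay far above the other 4 lines, which overlapped near 0.

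CXCL3 and CXCL2, close relatives of CXCL1, stood at 3.73 and 2.06 TPM in MCC13 and at 0.758 and 0.436 TPM in REH, and were listed at 0 in MKL-1, MKL-2 and WaGa. CXCL5 reached 0.427 TPM in MCC13 and at most 0.025 TPM elsewhere. The platelet chemokine genes PF4 and PPBP, which lie between CXCL1 and CXCL5, were listed at 0 in all lines, and PF4V1 reached at most 0.159 TPM. Gene order thus ran from IL8 and CXCL6 past PF4V1 to CXCL1, then PF4, PPBP, CXCL5, CXCL3 and CXCL2, with the high genes at the IL8 end. Of the 50-base stretches of CXCL1 transcripts, 4.81% also occur in CXCL2 and 0.481% in CXCL3, so some reads could be placed on either gene. The receptors of this group, CXCR1 and CXCR2, stood at most at 0.113 and 0.164 TPM in any line.

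**Figure D2:**
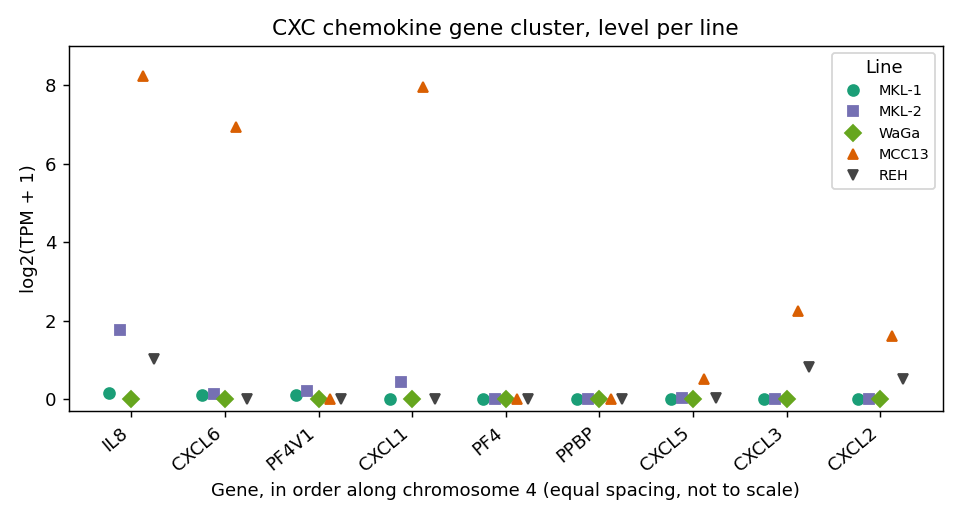
Level as log2(TPM + 1) on the y axis for 9 neighbouring genes in their order along chromosome 4, with 1 symbol per line and gene. MCC13 stands at 299.9, 121 and 247 TPM for IL8, CXCL6 and CXCL1 and at most at 3.73 TPM for the other 6 genes.

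MCC13 was compared with MKL-1, MKL-2 and WaGa to ask how this line differs from the rest of its group. Of the 63 members, 17 passed the filter (1 TPM in at least 1 of the 4 lines), and 5 of them were higher in MCC13 and none lower, by limma with adjusted p under 0.05. Over all 20698 genes tested, 6.47% were called higher and 2.47% lower (8.95% in all). All 5 members passed the filter through MCC13 alone, so their direction was fixed by the filter, and the count is a description. CXCL1 was higher by 7.81 ± 0.40 (SE) on the log2(TPM + 1) scale (limma, adjusted p = 0.00859) and CXCL6 by 6.85 ± 0.30 (limma, adjusted p = 0.00855). The others were CXCL3 (2.24 ± 0.12), CXCL2 (1.61 ± 0.11) and CCL20 (1.08 ± 0.09), with limma adjusted p from 0.00881 to 0.0176. These low genes depended on the pseudocount: with 0.1 in place of 1 the differences were 5.26, 4.43 and 3.60. CCL20, which draws CCR6-bearing dendritic and T cells, stood at 1.11 TPM in MCC13 and was listed at 0 elsewhere. IL8 was higher by 7.59 ± 0.94 (SE; limma, adjusted p = 0.0365), a call that was also lost after dropping any of the other 3 MCC lines. The median difference was 0.16 over the 17 members (-0.01 over all members tested without a filter) and -0.30 over all genes tested (-0.15 after quantile normalization of the libraries). For CXCL3, CXCL2 and CCL20 the other 3 lines were all listed at 0, so these SE rest on the variance trend over all genes. None of the 5 passed after dropping WaGa, MKL-1 or MKL-2 (limma, adjusted p from 0.0893 to 0.145), and CCL20 did not pass without the trend (limma, adjusted p = 0.0865). In the same comparison 2 of 4 fibroblast markers tested were higher in MCC13, COL1A2 (47.8 TPM) and PDGFRB (4.11 TPM), whereas LUM was listed at 0 and COL3A1 stood at 0.156 TPM there. DCN, also tested, was at 0.186 TPM in MCC13 against 2.08 to 25.1 TPM in the others, a difference of -3.30 that did not pass (limma, adjusted p = 0.291). Of 3 keratinocyte markers tested, KRT14 was higher (1.19 TPM in MCC13), whereas KRT5 was listed at 0 in MCC13 and stood at 0.676 to 5.95 TPM in the other MCC lines. PDGFRB and KRT14 passed the filter through MCC13 alone, which fixed their direction. Their part in the result was not tested.

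CCL2, which draws monocytes through CCR2, was shared by a pair of MCC lines. Its level was 154 TPM in MCC13, 28.4 TPM in MKL-2, 0.417 TPM in MKL-1, 0.113 TPM in REH and 0.061 TPM in WaGa. MCC13 was 5.41-fold above MKL-2, and both lay far above the other 3 lines. MKL-2 was also high, and the difference of MCC13 from the other 3 MCC lines, 5.45 ± 2.41 (SE) on the log2 scale, did not pass (limma, adjusted p = 0.272). CCR2 was listed at 0 in all 5 lines.

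CXCR4 was the main receptor gene and MCC13 had the least of it. From high to low it stood at 296 TPM in REH, 236 TPM in MKL-2, 150 TPM in MKL-1, 68.1 TPM in WaGa and 10.7 TPM in MCC13. Among all genes CXCR4 ranked number 520 in REH, 689 in MKL-2, 1197 in MKL-1, 3223 in WaGa and 9868 in MCC13. REH was 1.25-fold above MKL-2, and MCC13 lay below all other lines. The difference of MCC13 from the other 3 MCC lines was -3.54 ± 0.83 (SE) on the log2(TPM + 1) scale and did not pass after adjustment (limma, adjusted p = 0.113). CXCL12, the ligand of CXCR4, was low throughout, at 4.002 TPM in MKL-2, 1.51 TPM in MCC13, 1.47 TPM in WaGa, 0.216 TPM in REH and only 0.073 TPM in MKL-1.

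ACKR3, an atypical receptor that binds and removes CXCL12 and CXCL11 without G protein signalling, falls outside the name rule. Its levels ran from 77.5 TPM in MKL-1 over 10.4 TPM in MKL-2, 5.43 TPM in WaGa and 1.09 TPM in MCC13 to 0.197 TPM in REH. MKL-1 was 7.43-fold above MKL-2, and REH was the lowest line, unlike for CXCR4. The difference between the MCC lines and REH was 3.13 ± 2.04 (SE) on the log2 scale (limma, adjusted p = 0.519), or 4.85 with a pseudocount of 0.1. DARC (now ACKR1), a chemokine-binding receptor of red cells and venules, stood at 19.4 TPM in MKL-2, 7.18 TPM in WaGa, 4.70 TPM in MKL-1 and 0.461 TPM in MCC13, with 0 listed for REH. Its level is uncertain, since in GENCODE 29 its exons overlap those of CADM3 on the same strand, and CADM3 ran in the same order (60.0, 26.5, 15.5 and 6.30 TPM and a listed 0).

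**Figure D3:**
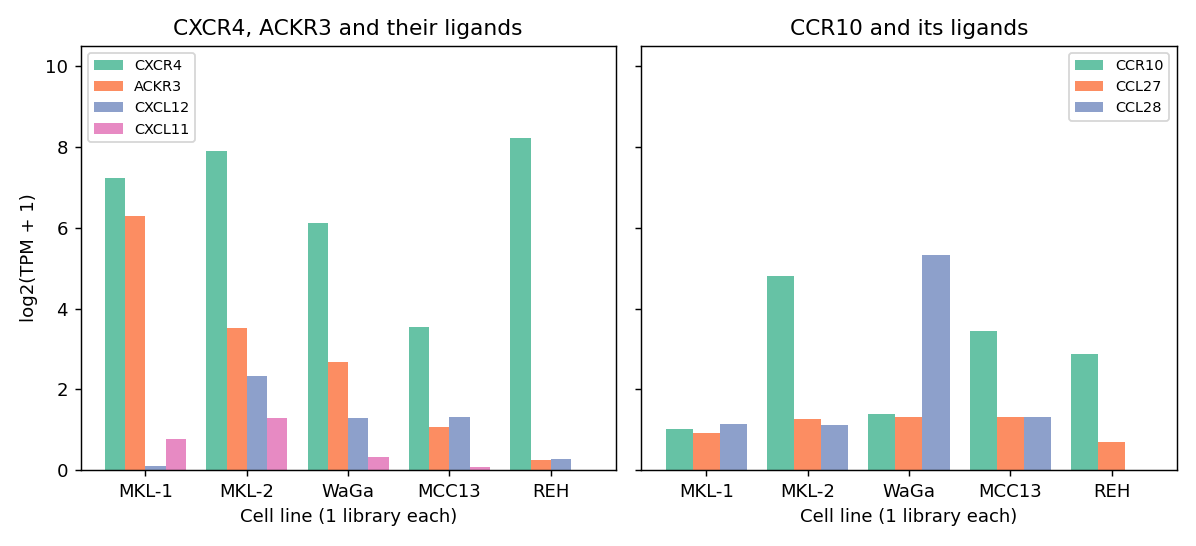
Level as log2(TPM + 1) per line for CXCR4, the atypical receptor ACKR3 and their ligands CXCL12 and CXCL11 (left) and for CCR10 and its ligands CCL27 and CCL28 (right), with 1 bar per gene and library. CXCR4 is the tallest bar of the left panel in all lines, and on the right CCL28 is tall only in WaGa, at 39.4 TPM.

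CCR10 and its ligands were detected in all MCC lines, with the receptor and CCL28 high in different lines. CCR10 stood at 26.8 TPM in MKL-2, 9.81 TPM in MCC13, 6.33 TPM in REH, 1.61 TPM in WaGa and 1.03 TPM in MKL-1. CCL28, a mucosal epithelial chemokine, reached 39.4 TPM in WaGa, with 1.48 TPM in MCC13, similar levels of 1.21 and 1.19 TPM in the MKL-1 and MKL-2 libraries, and 0 listed for REH. WaGa was 26.6-fold above the next line, whereas its CCR10 level was the second lowest. CCL27, the skin chemokine of keratinocytes, varied little, from 0.610 TPM in REH over 0.901 TPM in MKL-1 to 1.503 TPM in WaGa. On the opposite strand CCR10 overlaps exons of CNTNAP1 (5.36 to 69.7 TPM over the 5 lines) and CCL27 exons of IL11RA (11.8 to 28.8 TPM), and the sources used here do not say whether counting used strand, so both levels are uncertain. CCL27 also overlaps exons of AL162231.4 on the same strand, for which no level was found.

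Each of MKL-1, MKL-2 and WaGa was also compared with the other 3 MCC lines, and no member of the 17 tested was called in any of these comparisons, where 0% of 20698 genes were called (limma, adjusted p under 0.05). At unadjusted p under 0.05 there were 296 genes and no member in MKL-1, 638 genes with the member CXCL10 in MKL-2, and 467 genes with the member CCL28 in WaGa. CCL28 was higher in WaGa by 4.14 ± 0.81 (SE) on the log2 scale (limma, adjusted p = 0.9998). CXCL10, an interferon-induced T-cell attractant, reached 4.15 TPM in MKL-2, 0.107 TPM in MKL-1 and just 0.054 TPM in REH, with 0 listed for WaGa and MCC13. Its difference for MKL-2 was 2.32 ± 0.43 (SE) on the log2 scale (limma, adjusted p = 0.878), or 5.06 with a pseudocount of 0.1. CXCL10 passed the filter through MKL-2 alone, which fixed that direction. CXCL11, of the same kind, was also highest in MKL-2 at 1.44 TPM, followed by MKL-1 at 0.698 TPM, with 0.245 TPM in WaGa, 0.066 TPM in MCC13 and a listed 0 in REH. CXCL9 was listed at 0 in all 5 lines, and their receptor gene CXCR3 reached at most 0.027 TPM. The CXCL9 and CXCL10 windows each held 1 match to TTCNNTTTC (either strand), a pattern of the interferon response element type, and the CXCL11 window held none. The CXCL2 and CXCL3 windows also held 1 each, and the pattern was found in 8.11% of all windows and 22.4% of members' windows.

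The 4 MCC lines were then compared with REH, to set the chemokine system of the carcinoma group beside that of a B-cell precursor leukemia. Of the 63 members, 18 passed the filter, and 1 of them, CCL5, was lower in the MCC lines while none was higher (limma, adjusted p under 0.05). Over all 22250 genes tested, 5.24% were called (1.09% higher and 4.15% lower), so 1 of 18 lay near the background share. CCL5, a T-cell and monocyte attractant, reached 1.67 TPM in REH and 0.059 TPM in MKL-2, with 0 listed for WaGa, MCC13 and MKL-1. Its difference was -1.40 ± 0.15 (SE) on the log2(TPM + 1) scale (limma, adjusted p = 0.0171), and it passed the filter through REH alone. With a pseudocount of 0.1 the difference was -3.98. Without MCC13, the line that went against its label's markers, the difference was -1.39 (limma, adjusted p = 0.0150). It did not pass after dropping WaGa, MKL-1 or MKL-2 (limma, adjusted p from 0.0837 to 0.117) or without the variance trend (limma, adjusted p = 0.0908). Of the 4 T-cell and NK-cell markers, only NKG7 reached 1 TPM in any line. It was also lower in the MCC lines, at 10.4 TPM in REH against 0.320 TPM or less elsewhere. CD3D, CD3E and CD2 were listed at 0 in every line. Of 2 myeloid markers tested, CSF1R was lower (17.5 TPM in REH against 0.134 TPM or less elsewhere). The other, CD14, ran the other way without passing, at 0.500 to 2.71 TPM in the MCC lines against 0.359 TPM in REH (difference 0.79). NKG7 and CSF1R also passed the filter through REH alone, so lower was the only direction open to them. Their part in the CCL5 result was not tested.

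CCR7, which guides lymphocytes to lymph nodes, reached 6.72 TPM in REH, 1.31 TPM in WaGa, 1.27 TPM in MKL-2, 0.596 TPM in MKL-1 and 0.498 TPM in MCC13. REH lay above all 4 MCC lines, but the difference of -2.04 ± 0.47 (SE) did not pass (limma, adjusted p = 0.0997, or 0.0657 without MCC13). Of its ligands, CCL19 reached at most 0.257 TPM and CCL21 was listed at 0 in every line.

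For CXCR4 the MCC lines minus REH gave -2.02 ± 1.74 (SE; limma, adjusted p = 0.622). REH lay above all 4 MCC lines, and the difference did not pass, nor did the -1.13 without MCC13 (limma, adjusted p = 0.431). The median difference was 0.39 over the 18 members and 0.18 over all genes tested. After quantile normalization these medians were 0.37 and 0.07. Without a filter the median was 0.01 over the members tested and 0.03 over all genes. Exact permutation of the labels has a smallest p of 0.2 for 4 lines against 1 and of 0.25 for 3 against 1.

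**Figure D4:**
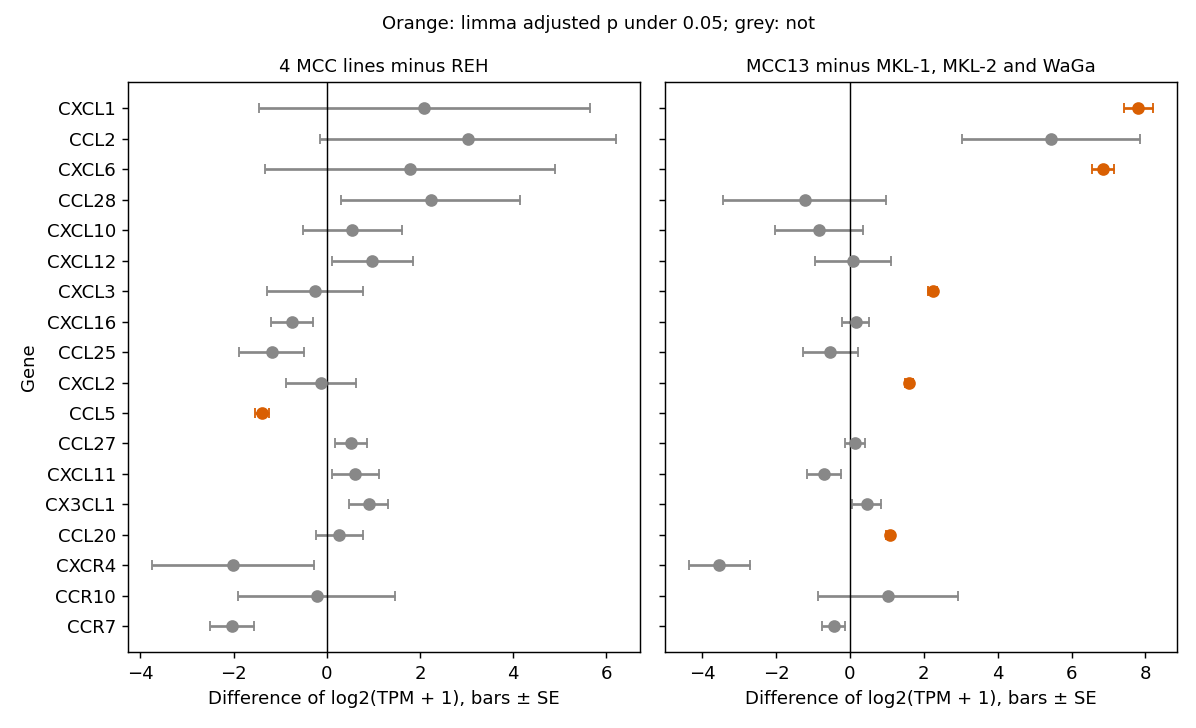
Difference of log2(TPM + 1) on the x axis with its SE for the members tested, between the 4 MCC lines and REH (left) and between MCC13 and the other 3 MCC lines (right). CCL5 on the left and CXCL1, CXCL6, CXCL3, CXCL2 and CCL20 on the right passed limma at adjusted p under 0.05 and are drawn in orange. Each of these passed the filter through a single line, REH on the left and MCC13 on the right, which fixed its direction.

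The remaining chemokines at 1 TPM or more were low in every line. CXCL16, a membrane-bound chemokine that is shed by proteases, stood at 3.07 TPM in REH, 2.05 TPM in WaGa, 1.63 TPM in MCC13 and 1.07 TPM in both MKL-1 and MKL-2. On the opposite strand it overlaps exons of MED11 (19.4 to 52.4 TPM), so its level is uncertain. CX3CL1, the other membrane-bound chemokine, reached 1.36 TPM in MCC13, 1.31 TPM in WaGa, 0.652 TPM in MKL-2 and 0.339 TPM in MKL-1, with 0 listed for REH. CCL25, which guides developing T cells to the thymus, stood at 2.50 TPM in REH and near it at 2.08 TPM in MKL-1, but at just 0.557 TPM in MKL-2 and 0.169 TPM in MCC13, with 0 listed for WaGa. Neither the CX3CL1 nor the CCL25 difference between the MCC lines and REH passed the test (limma, adjusted p = 0.372 and 0.481).

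Ligand and receptor genes seldom met in the same line. Only 3 receptor genes and 15 chemokine genes of the name rule reached 1 TPM in any line, which limits the pairs that could. Of 42 textbook pairs, the atypical receptors included, 7 had both genes at 1 TPM or above in at least 1 line. MKL-2 held all 7, WaGa and MCC13 held 4 each, MKL-1 held 1 and REH none. The pairs within the name rule were CXCR4 with CXCL12 (MKL-2, WaGa and MCC13), CCR10 with CCL27 (the same 3 lines) and CCR10 with CCL28 (all 4 MCC lines). The others paired ACKR3 with CXCL12 or CXCL11 and DARC with CCL2 or IL8. The pairs with CCR10, CCL27 or DARC rest on levels that are uncertain because of overlapping genes. For CXCL1 and CXCL6, abundant in MCC13, no partner receptor among these pairs reached 1 TPM in that line.

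Genes that act below chemokine receptors were more abundant in REH than in the MCC lines for a few members of the list. Of 27 signalling genes tested, 3 were lower in the MCC lines and none higher by limma at adjusted p under 0.05. Over all genes tested 4.15% were lower and 1.09% higher. The median difference of the list was -2.58, against 0.18 over all genes tested. The 3 genes were PIK3R5, a regulator of the receptor-coupled PI3-kinase (26.2 TPM in REH against 0.616 TPM or less elsewhere), and RGS1 and RGS13, which switch off G protein signals (6.96 and 1.24 TPM in REH and listed at 0 elsewhere). In MCC13, 3 of 24 were higher than in the other MCC lines and none lower, with a median of 0.44 against -0.30 over all genes, of which 6.47% were higher and 2.47% lower. RAC2, a GTPase of leukocyte movement, reached 168 TPM in MCC13 against 0.727 TPM or less in the rest of the group. PREX1, which activates RAC proteins, reached 40.1 TPM where the others had 2.49 TPM or less, and PIK3CG reached 1.56 TPM against a listed 0. REH lay above MCC13 for RAC2, PREX1 and PIK3CG, at 234, 62.0 and 13.0 TPM. Of the signalling genes called in either comparison, all but PREX1 passed the filter through the high line alone in the comparison that called them, which fixed their direction. Other settings ended some of these calls: a pseudocount of 0.1 for PIK3R5 and PREX1 (limma, adjusted p = 0.0753 and 0.0667), a mean of 5 TPM or more for PIK3R5 (0.0782), and no variance trend for RGS13 and PIK3CG (0.127 and 0.0625).

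Of 25 genes tested among inducers and regulators of chemokines, 3 were lower in the MCC lines than in REH and none was higher (limma, adjusted p under 0.05), against 4.15% lower and 1.09% higher over all genes. The median of the list was -0.63, against 0.18 over all genes. The 3 were the cytokine genes IL1B (20.8 TPM in REH), LTA (16.3 TPM) and LTB (362 TPM), the last at up to 5.44 TPM in MKL-2. Without MCC13 the LTB call was lost (limma, adjusted p = 0.0594) and those of IL1B and LTA were kept. A pseudocount of 0.1 ended the LTA and LTB calls (limma, adjusted p = 0.103 and 0.139), and LTB was also lost with a mean of 5 TPM or more (0.0588) and without the variance trend (0.0521). In MCC13, 3 of 23 were higher than in the other MCC lines and 1 was lower, against 6.47% higher and 2.47% lower over all genes, and the median was 0.72 against -0.30. IL6, an inflammatory cytokine, reached 127 TPM in MCC13 against at most 0.799 TPM in the rest of the group. FOSL1, an AP-1 subunit, reached 415 TPM against at most 0.316 TPM, and IL1R1, the interleukin 1 receptor, 2.75 TPM against a listed 0. IL1B, LTA, IL6, FOSL1 and IL1R1 likewise passed the filter through the high line alone. LTBR, the lymphotoxin receptor, was lower, at 2.74 TPM against 82.5 to 112 TPM. Of the NF-kB subunit genes, NFKB1 stood at 73.9 TPM in MCC13 and RELB at 42.1 TPM, against at most 12.6 and 10.9 TPM in the other MCC lines. REL, a further subunit gene, stood at 6.80 TPM in MCC13 against 3.52 to 8.72 TPM. The NF-kB subunit genes did not pass, with NFKB2 at 209.7 TPM in MCC13 against 2.56 to 15.2 TPM (limma, adjusted p = 0.0978) and RELA at 67.2 TPM against 80.5 to 106 TPM (limma, adjusted p = 0.333). High levels were not confined to MCC13, since REH had NFKB1 at 71.6 TPM and NFKB2 at 94.5 TPM. RELB, REL and RELA stood at 13.5, 6.18 and 39.1 TPM in REH. As for the members, no call in these lists was kept after dropping WaGa, MKL-1 or MKL-2, since no gene of the table passed then.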

How the data were processed

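RNA of 5 cell lines, 1 library each, was measured by mRNA sequencing with a directional kit, per the labels' protocols. The TPM values used here are those the authors deposited, for 57905 genes. The submitters' processing notes name STAR 2.4.5b and StringTie 1.3.5 beside bcl2fastq 2.20 and SAMtools 0.1.19, and the builds hg19 and GRCh37, without their roles. TPM keeps no depth, and a few abundant genes shift all others. The 1 column of values that belonged to no sample and the deposited exon values were not used.

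Genes reaching 1 TPM in any line compared were fitted by limma 3.58.1 (R 4.3.3) on log2(TPM + 1) (variance trend, 2-sided, Benjamini-Hochberg over all genes tested, threshold 0.05), which understates changes of low genes. Residual degrees of freedom were 3 against REH and 2 between MCC lines, and the spread of a single line was taken to equal that of the other group. Alternatives were a pseudocount of 0.1, no filter, a mean of 5 TPM or more, quantile normalization, no trend and leaving out each MCC line.

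The members and lists were chosen with earlier results of these data known. Named were the members at 1 TPM in a line, list genes that passed and, among genes outside the name rule, those at 1 TPM. PITPNM3 (at most 1.55 TPM) was the last of these. CXCL5, the members below 1 TPM, the NF-kB subunit genes, the overlapping genes and the 9-base search were chosen after values were seen. Exon overlaps and shared 50-base stretches came from GENCODE 29 (51 of 63 members found by identifier), without coordinates, and promoters from RefSeq.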

Additional observations from a re-analysis of the deposited data

Results flagged for a closer look

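The 4 MCC lines were searched for a line far from the other 3 (gap to the nearest line over the whole range on the log2(TPM + 1) scale above Dixon's critical value for 4 samples) in 22 genes, the 18 members at 1 TPM and 4 genes outside the name rule. Of the 22 genes, 9 held such a line. Chance gives one in about 1 in 20 groups not chosen by level, but these genes were kept for reaching 1 TPM in at least 1 line, which favours genes high in a single line, so the count cannot be read against that rate. CXCL1, CXCL6, CXCL3, CXCL2, CCL20 and CXCL10 each reached 1 TPM in only 1 of the 4 MCC lines. MCC13 stood apart as the highest line for CXCL1 (247 TPM), CXCL6 (121 TPM), CXCL3 (3.73 TPM), CXCL2 (2.06 TPM) and CCL20 (1.11 TPM). WaGa stood apart as the highest for CCL28 (39.4 TPM), and MKL-2 for CXCL10 (4.15 TPM) and CCL5 (0.059 TPM). MKL-1 stood apart as the lowest for CCL27 (0.901 TPM). The values for CCL5 and CCL27 differ from the other lines by less than 1 TPM. IL8 did not meet the limit, with a ratio of 0.786, MCC13 at 299.9 TPM and MKL-2 at 2.39 TPM.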

How the results depend on the processing

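Against REH the 1 member called became 8 without a filter on low values and 0 with a mean of 5 TPM or more or without the variance trend, and ranged from 0 to 1 when an MCC line was left out. Over all genes the 1166 calls became 3694 without a filter and 288 with a mean of 5 TPM or more, and ranged from 0 (without MKL-1, MKL-2 or WaGa) to 2828 (without MCC13). For MCC13 against the other 3 MCC lines the 5 members called became 2 with a mean of 5 TPM or more, when CXCL1 and CXCL6 passed, and 0 without any of MKL-1, MKL-2 and WaGa. The 1852 calls over all genes became 3312 without a filter, 1167 with a mean of 5 TPM or more, and 0 without any of these 3 lines. With MKL-2 against the other 3, the 0 members and 0 genes called became 1 and 604 without a filter. MKL-1 and WaGa comparisons gave 0 calls under every alternative run. IL8 in MCC13 did not pass with a pseudocount of 0.1 (limma, adjusted p = 0.11) or without a filter (limma, adjusted p = 0.0546). Without a filter, genes listed at 0 in most lines enter the test, and the cause of the other changes was not tested. The single-gene differences that were followed under the alternatives kept their direction. All genes were refitted, but those of CX3CL1, CCL25, the NF-kB subunits and the markers were not compared between settings. REH could not be left out, since no line of its group remained. No paired analysis was possible because each library came from a different line. The unknown read depth limits all values near 0.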

Other observations

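Genes that cut, shed or hold chemokines outside the cell differed between the lines for a few members. Of 11 tested, 2 were higher in the MCC lines than in REH and none lower by limma at adjusted p under 0.05. Over all genes tested 1.09% were higher and 4.15% lower. The median difference of the list was 0.79, against 0.18 over all genes. No call was kept after dropping WaGa, MKL-1 or MKL-2. MMP14, a membrane-bound matrix protease, stood at 138 TPM in WaGa, 108 TPM in both MKL-1 and MKL-2, 72.1 TPM in MCC13 and 3.44 TPM in REH. SDC4, a heparan sulfate proteoglycan, reached 77.6 TPM in MCC13, 69.9 TPM in WaGa, 48.3 TPM in MKL-1 and just 21.3 TPM in MKL-2, with 0 listed for REH. SDC4 passed the filter through the MCC lines alone, so higher was the only direction open to it. In MCC13, 1 of 11 was higher than in the other 3 MCC lines and none lower, against 6.47% and 2.47% of all genes. This was MMP1, an interstitial collagenase, at 829 TPM against at most 0.028 TPM, which passed the filter through MCC13 alone. The proteases that shed CX3CL1 and CXCL16, ADAM10 and ADAM17, stood at 42.5 to 54.0 and 16.2 to 49.9 TPM over the 5 lines and passed in neither comparison (limma, adjusted p from 0.474 to 0.861). DPP4, which clips CXCL12 and CXCL10, reached 2.67 TPM in WaGa and at most 0.483 TPM elsewhere.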
